A study of Homo sapiens with 3 samples.

Results

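The 9 genes NQO1, HMOX1, GCLM, GCLC, TXNRD1, TXN, PRDX1, GSR and AKR1C1 are antioxidant and detoxification genes that the transcription factor NRF2 is known to induce. They were measured in 3 populations of the human melanoma line 1205Lu by all probes that carry one of these symbols on the array, which came to 15 of 41000 probes and 24 of 43376 spots. All 9 genes were above background on all 3 arrays by their brightest probe. Of 17084 known genes on the array, 13731 were above background on at least 1 of the OM and MB arrays, so most known genes were measured. The share of known genes above background on all 3 arrays was not counted. 1205Lu was derived from a xenograft lung metastasis of the line WM793. Cells of the original monolayer (OM) had grown for 14 days in RPMI-1640 with fetal calf serum. Melanoma bodies (MB), which are attached 3-dimensional clusters, had formed over 14 days in a medium made for human embryonic stem cells (hESC medium, with serum replacement instead of serum). For the new monolayer (NM), bodies grown for 14 days in hESC medium were returned for 10 days to the RPMI medium with serum, and the residual 3-dimensional bodies were taken out before RNA was prepared. Each population was 1 culture on 1 array with 1 colour (Cy3), so no test across samples could be run, and body formation, medium and the culture itself cannot be told apart. Total RNA of a whole culture was measured, in which fewer cells that express a gene and less RNA per cell cannot be told apart.

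NRF2, encoded by NFE2L2, is held in the cytoplasm and marked for degradation by KEAP1, an adaptor of a CUL3 ubiquitin ligase whose cysteines react with oxidants and electrophiles. When KEAP1 is modified, NRF2 builds up in the nucleus, pairs with a small MAF protein and binds antioxidant response elements near its target genes, which the repressor BACH1 can also occupy. The targets make and recycle glutathione, reduce thioredoxin and peroxides, break down heme and reduce quinones and carbonyls, and the route is known to protect tumour cells from oxidative stress.

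The core of the antioxidant response element was written as TGACNNNGC and looked for on both strands of the RefSeq promoters (GRCh38.p14, from 250 bases before to 50 bases after the start of transcription), where 13.3% of 35116 promoters held it. The table had 7 promoters of 6 of the genes (NQO1, GCLM, GCLC, TXNRD1 with a pair of promoters, TXN and AKR1C1) and none of HMOX1, PRDX1 or GSR. The letters were found in 3 of the 7, that of GCLM and both of TXNRD1. They are shown because these are the only windows that held the element, with the match in capitals, each from the coding strand 5′ to 3′. The first lies at chr1:93909430-93909489 on the minus strand, both matches of the first TXNRD1 promoter at chr12:104215655-104215714 and chr12:104215746-104215779 and that of its other promoter at chr12:104286905-104286964, all on the plus strand.
GCLM: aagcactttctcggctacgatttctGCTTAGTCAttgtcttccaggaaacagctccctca
TXNRD1 promoter 1, distal match: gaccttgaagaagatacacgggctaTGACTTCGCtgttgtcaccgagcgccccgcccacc
TXNRD1 promoter 1, proximal match: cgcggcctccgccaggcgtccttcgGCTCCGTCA
TXNRD1 promoter 2: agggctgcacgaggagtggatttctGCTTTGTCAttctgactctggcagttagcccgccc
The match began 34 bases before the start in GCLM, 99 and 8 bases before it in the first TXNRD1 promoter and 102 bases before it in the other. All but the distal TXNRD1 match read TGACNNNGC on the opposite strand. A match describes these letters and was not tested as a binding site, and the windows of NQO1, GCLC, TXN and AKR1C1 did not hold them.

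The probes decide what a value means most for TXN and AKR1C1, so 4 of their 60-base probes from the coding sequence are shown, in lower case because no part of them was singled out. The TXN probes were placed by the files on the minus strand of hg17 at chr9:110086004-110086621 and chr9:110086642-110092677, intervals of 618 and 6036 bases, so that each crosses an exon junction. The AKR1C1 probes lie on the plus strand at chr10:5008064-5008123 and chr10:4995636-4995695.
TXN probe 1: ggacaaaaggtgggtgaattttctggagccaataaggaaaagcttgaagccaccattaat
TXN probe 2: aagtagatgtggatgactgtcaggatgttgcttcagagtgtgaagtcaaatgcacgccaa
AKR1C1 probe 1: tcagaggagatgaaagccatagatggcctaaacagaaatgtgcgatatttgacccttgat
AKR1C1 probe 3: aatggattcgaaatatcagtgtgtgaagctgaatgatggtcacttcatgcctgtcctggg
The files list transcripts of both AKR1C1 and AKR1C2 for AKR1C1 probes 1 and 2, and of AKR1C1 alone for probe 3. No probe carried the symbol AKR1C2, so the signal of probes 1 and 2 can come from both genes.

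Signals are given below as deposited, in arbitrary units (a.u.) with the background subtracted and no scaling between arrays. Ratios are of signals relative to 3 housekeeping genes on the same array (the average of ACTB, GAPDH and HSP90AA1), which was 0.978 of that of OM on the MB array and 0.877 on the NM array. With 1 array each, the only spread that could be measured was that between repeated spots on an array. Over 200 to 201 probes printed in 10 spots and brighter than 100 a.u., the log2 ratio of a single spot had an SD of 0.04 to 0.05, and it rose to 0.17 to 0.21 over the 14 to 15 such probes whose dimmer array was under 100 a.u. It leaves out the spread between cultures.

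Against OM, the bodies had 8 of the 9 genes lower and 1 higher, with a median log2 ratio of -0.52 (PRDX1 turned from lower to higher under quantile normalization), while 38.4% of 13731 measured genes were lower and 61.6% higher, with a median of 0.13. HMOX1 and AKR1C1 were at least 2-fold lower in MB, which is 2 of 9, where 4.12% of all measured genes were. None was 2-fold higher, where 6.66% of all genes were. Scaled instead to each array's 75th percentile, 4.6% of all genes were 2-fold higher and 5.75% lower, GCLM joined HMOX1 and AKR1C1 as 2-fold lower (3 of 9), and the median over the 9 genes was -0.71 against -0.05 over all genes. Against NM, the bodies had AKR1C1, HMOX1 and TXN at least 2-fold lower, or 3 of 9 beside 9.25% of all genes, and none 2-fold higher beside 10.4%. The median of the 9 genes was then -0.30 and that of 13618 measured genes 0.02. Without scaling, NQO1 came to 2-fold higher in MB than NM, and 13.6% of all genes were 2-fold higher and 7.2% lower. Between the monolayers, NQO1 and GCLM were 2-fold lower in NM than OM (2 of 9, beside 3.1% of all genes) and none was 2-fold higher (beside 4.98%), with medians of -0.09 over the 9 genes and 0.10 over 13467. Without scaling, 3.31% of all genes were 2-fold higher and 4.86% lower in NM.

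None of the 9 genes reached 5-fold, the threshold used by the study, in any comparison. Of all measured genes, 1.56% did so when MB was set against OM, 2.79% for MB against NM and 0.743% for NM against OM, with the brighter array above 100 a.u.

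**Figure D1:**
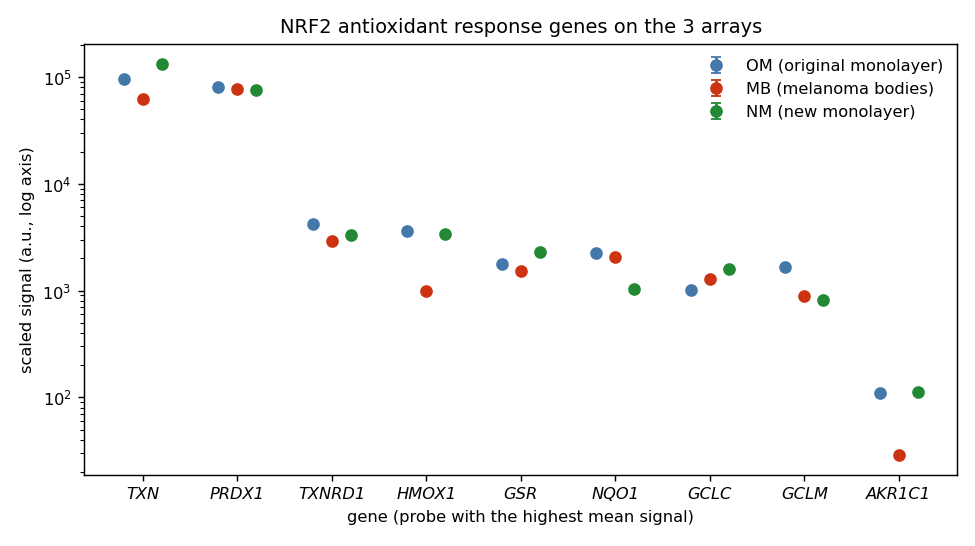
Scaled signal (a.u., logarithmic axis) of the 9 genes on the OM (blue), MB (red) and NM (green) arrays, 1 array each, read from the brightest probe of each gene; bars on HMOX1 are the SD of 10 spots, too small to stand clear of the points, and the other genes have 1 spot. HMOX1 and AKR1C1 are low on MB alone, NQO1 on NM alone, and levels of different genes are not comparable because each has its own probe.

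**Figure D2:**
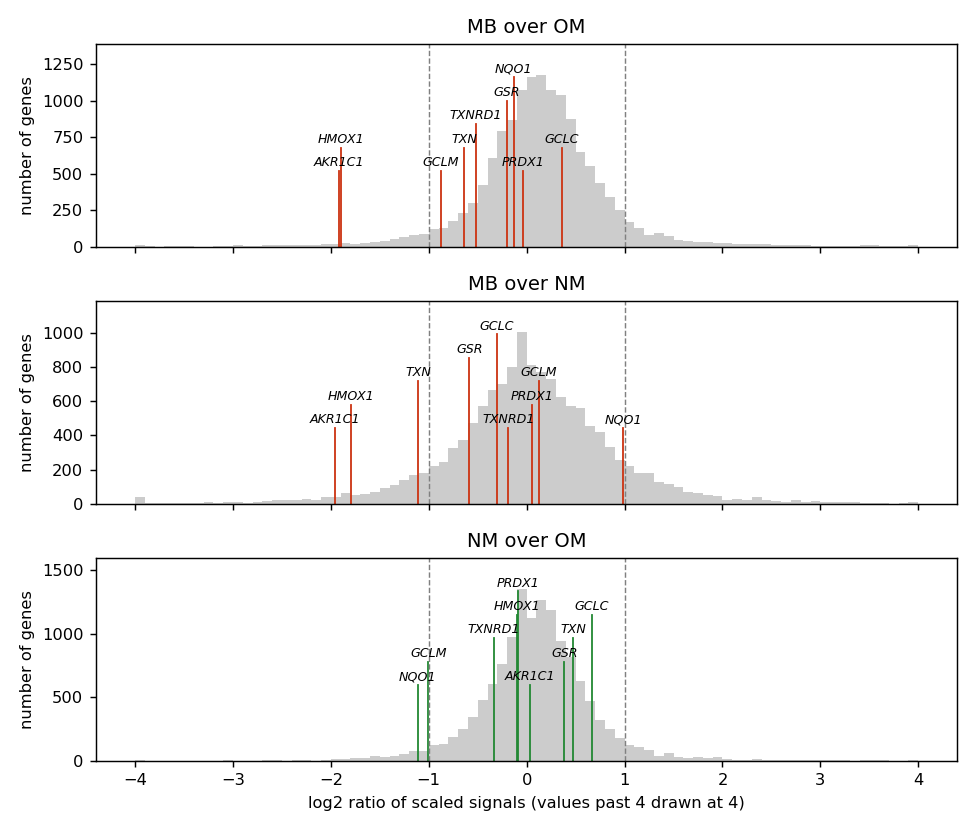
Number of measured known genes by log2 ratio of scaled signals (grey, in steps of 0.1), with the 9 genes as coloured lines, for MB over OM, MB over NM and NM over OM; dashed lines mark 2-fold. HMOX1 and AKR1C1 stand past the lower dashed line in both comparisons of MB and near 0 between the monolayers.

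HMOX1, the inducible heme oxygenase, which opens the heme ring and releases iron, carbon monoxide and biliverdin, had the best measured value, since its probe (NM_002133, hg17 chr22:34114676-34114735, plus strand) was printed in 10 spots. Its signal was 3648 ± 91.9 a.u. on OM, 959 ± 18.7 a.u. on MB and 2980 ± 72.7 a.u. on NM (SD over 10 spots, which is technical). The highest MB spot, 986 a.u., was far below the lowest spot of OM, 3510 a.u., and of NM, 2871 a.u. In MB, HMOX1 was thus 3.72-fold below OM and 3.46-fold below NM. After scaling, the spots of the monolayers just overlapped, from 3510 to 3776 a.u. on OM and from 3273 to 3521 a.u. on NM, and the log2 ratio of NM over OM was -0.10.

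Other genes of heme and iron handling were compared with it. HMOX2, the constitutive heme oxygenase, had 7788 a.u. on OM, 11421 a.u. on MB and 4440 a.u. on NM, so it was highest in the bodies and 2-fold or more higher there than in NM (log2 ratio 1.21). The log2 ratio of MB over OM was 2.48 lower for HMOX1 than for HMOX2, a difference that a scaling factor per array cannot change. Of 8 measured genes on this list none passed 2-fold between MB and OM, and their median log2 ratio was -0.32. Between MB and NM, BLVRB, a biliverdin reductase, and FTL, the ferritin light chain that stores iron, were lower in MB, with log2 ratios of -1.50 and -1.21. Against OM, BLVRB had -0.89, which passed 2-fold at -1.08 with the 75th percentile and -1.05 with quantile normalization. FTL missed 2-fold under quantile normalization, at -0.90. FTH1, the ferritin heavy chain, had -0.21 against OM and -0.80 against NM.

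AKR1C1, an aldo-keto reductase of steroids and carbonyls, was dim on every array and was described by 4 probes. Probe 1 read 109 a.u. on OM, 28.1 a.u. on MB and 97.8 a.u. on NM. Probe 2 (hg17 chr10:5009910-5009969) read 68.3, 25.9 and 72.3 a.u. in the same order. Both were lowest on MB and alike on the monolayers, the first 3.78-fold and the second 2.58-fold lower in MB than OM. Probe 3, listed for AKR1C1 alone, read 45.6 a.u. on OM, 41.5 a.u. on NM and 19.4 a.u. on MB. There it did not clear the background, so its level in MB was at least 2.30-fold below OM and at least 2.39-fold below NM. These bounds were counted from its own reading, which lay just above the dimmest signal that passed the background call on the MB array. Probe 4 (BC040210, hg17 chr10:4985037-4985096) did not clear the background on any array. With normexp background correction, an offset of 50 was added to every spot, which weighs most on dim ones. The AKR1C1 log2 ratio in MB then fell short of 2-fold, at -0.83 against OM and -0.93 against NM. Among related reductases, AKR1C3 had 151 a.u. on OM, 96.6 a.u. on MB and 59.99 a.u. on NM and was lower in NM than OM (log2 ratio -1.14, but -0.54 with normexp and -0.65 without background subtraction, both short of 2-fold), and AKR1C4 did not clear the background anywhere.

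**Figure D3:**
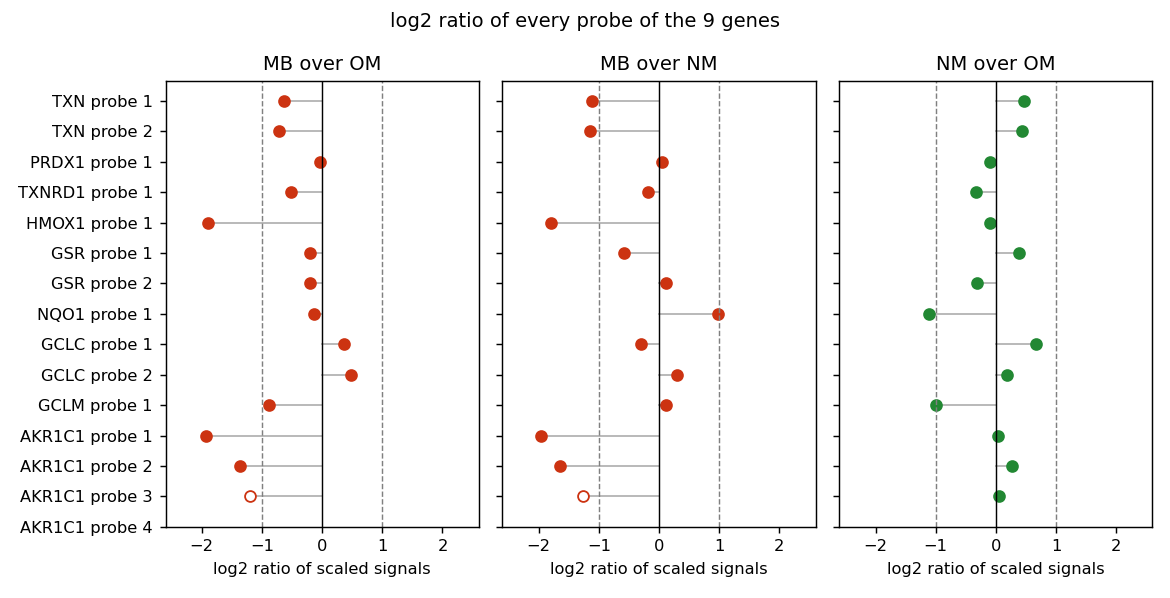
Log2 ratio of scaled signals for each probe of the 9 genes (probe 1 is the brightest), for MB over OM, MB over NM and NM over OM; open circles have only a bound because 1 array was not well above background, and AKR1C1 probe 4, at background on all 3, is not drawn. The probes of TXN lie close together in all panels, whereas those of GCLC and of GSR lie on opposite sides of 0 for MB over NM. Those of GSR do so for NM over OM as well.

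NQO1, a quinone reductase often used as a readout of NRF2, showed another order. It read 2256 a.u. on OM, 2014 a.u. on MB and 914 a.u. on NM (NM_000903, 1 probe, hg17 chr16:68301775-68301834, minus strand). The bodies stayed near OM, with a log2 ratio of -0.13, and NM stood apart as the low array, 2.16-fold below OM and 1.98-fold below MB. NQO2, its paralogue, had log2 ratios of 0.04, 0.01 and 0.03 for MB over OM, MB over NM and NM over OM, and the log2 ratio of NM over OM was 1.14 lower for NQO1 than for NQO2 (coded NQO1 minus NQO2, -1.14).

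GCLC and GCLM are the catalytic and the modifier subunit of glutamate-cysteine ligase, which catalyses the rate-limiting step of glutathione synthesis. GCLM (NM_002061, 1 probe, hg17 chr1:94066555-94066614, minus strand) read 1646 a.u. on OM, 874 a.u. on MB and 721 a.u. on NM. It was highest on OM, 1.84-fold lower in MB and 2.00-fold lower in NM, a value at the 2-fold line that fell to the other side of it under 3 of 11 alternatives. GCLC (NM_001498, hg17 chr6:53470156-53470215, minus strand) read 1006, 1261 and 1398 a.u. on OM, MB and NM, so it was lowest on OM, and its log2 ratio was 0.36 in MB and 0.66 in NM. Its second probe (M90656, hg17 chr6:53471396-53471459) read 277, 376 and 275 a.u., with log2 ratios of 0.47 in MB and 0.18 in NM. The probes shared the higher value in MB than OM and put MB and NM in opposite order. The subunits moved apart from OM in both comparisons by either GCLC probe. The log2 ratio of GCLC exceeded that of GCLM by 1.24 or 1.35 in MB over OM and by 1.67 or 1.18 in NM over OM, for the first and the second GCLC probe, which a scaling factor per array cannot change.

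TXN, the cytosolic thioredoxin that reduces protein disulfides, had a pair of probes of the transcript NM_003329, whose sequences are given above. Probe 1 read 96227 a.u. on OM, 60493 a.u. on MB and 117204 a.u. on NM, and probe 2 read 54677, 32367 and 64593 a.u. Both put MB lowest and NM highest. By probe 1, TXN in MB was 1.55-fold below OM and 2.16-fold below NM, and by probe 2 it was 1.65-fold and 2.22-fold below them. Under quantile normalization and without scaling, the probe 1 difference from NM was under 2-fold, and the lowest size over the alternatives was a log2 ratio of -0.68.

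TXNRD1, the NADPH-dependent reductase of thioredoxin, read 4219 a.u. on OM, 2876 a.u. on MB and 2936 a.u. on NM (NM_003330, 1 probe, hg17 chr12:103245100-103245159, plus strand). It was highest on OM and 1.43-fold lower in MB and 1.26-fold lower in NM. PRDX1, a peroxiredoxin that uses thioredoxin to remove peroxides, read 80112, 76222 and 65978 a.u. (NM_002574, 1 probe, hg17 chr1:45649388-45649682, minus strand). Its log2 ratios, between -0.09 and 0.05, were the smallest in range of the 9 genes, and those of MB over OM and MB over NM changed sign with the scaling.

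GSR, glutathione reductase, which returns oxidised glutathione to its reduced form, had a pair of probes on the minus strand of chromosome 8 (hg17 chr8:30656511-30656570 and chr8:30655808-30655867). The first (NM_000637) read 1770 a.u. on OM, 1505 a.u. on MB and 2025 a.u. on NM, and the second (BC035691) read 587, 498 and 414 a.u. They gave nearly the same log2 ratio of MB over OM, -0.20 and -0.21. They differed in sign for MB over NM, at -0.58 and 0.11, and for NM over OM, at 0.38 and -0.32. The place of NM relative to MB or OM can therefore not be given for GSR.

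The genes therefore fell into several orders of the 3 arrays. HMOX1 and AKR1C1 were low in MB and near OM again in NM, TXN was low in MB and highest in NM, NQO1 was low in NM, and GCLM and TXNRD1 were below OM in both. Relative to the median gene, which removes the choice of a scaling factor, the log2 ratio of MB over OM was -2.03 for HMOX1, -2.05 for AKR1C1, -1.02 for GCLM, -0.77 for TXN, -0.65 for TXNRD1, -0.34 for GSR, -0.27 for NQO1, -0.17 for PRDX1 and 0.22 for GCLC. For NM over OM it was -1.21 for NQO1, -1.10 for GCLM and 0.56 for GCLC, and between -0.43 and 0.38 for the other genes.

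The regulators of the response did not pass 2-fold between MB and OM, apart from 1 related factor. NFE2L2, which encodes NRF2, read 17197 a.u. on OM, 17031 a.u. on MB and 24051 a.u. on NM, a log2 ratio of 0.02 in MB and 0.67 in NM over OM. KEAP1 read 8269, 13450 and 6732 a.u., highest in MB, with log2 ratios of 0.73 against OM and 0.84 against NM. BACH1, the repressor at the same elements, read 6066, 10534 and 11375 a.u. by its brightest probe and was higher than OM in MB (0.83) and NM (1.10). The value in NM fell to 0.15 when averaged over both of its probes, which thus differed in sign there. It also missed 2-fold with quantile normalization and without scaling. NFE2L3, a factor of the same family, was lower in MB, by log2 ratios of -1.22 against OM and -1.92 against NM. MAFF, a small MAF partner, had -0.89 and -1.60. Arrays measure transcripts, and the amount or place of the NRF2 and KEAP1 proteins was not measured.

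Of 87 further genes on 7 lists by role (regulation, glutathione, thioredoxin and peroxiredoxin, quinone and carbonyl reduction, heme and iron, NADPH supply, superoxide and peroxide removal), 86 were on the array by name and 80 were measured between MB and OM. In MB, 9 of these 80 (11.2%) were 2-fold lower than in OM, where 4.12% of all measured genes were, and 2 (2.5%) were higher, beside 6.66%, with a median log2 ratio of -0.11. The number lower came to 13 when the arrays were scaled to the 75th percentile or quantile normalized. Of all genes, 5.75% and 5.22% were then 2-fold lower, so the share over all genes rose too. Against NM, 14 of 80 (17.5%) were lower in MB, beside 9.25% of all genes, and 2 (2.5%) higher, beside 10.4%, with a median of -0.16. Between the monolayers, 8 of 79 (10.1%) were higher in NM, beside 4.98% of all genes, and 1 (1.27%) lower, beside 3.1%, with a median of 0.20.

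Glutathione genes held 4 of the 9 lower in MB than OM. CHAC1, which degrades glutathione and is also a stress response gene, read 9743 a.u. on OM, 671 a.u. on MB and 10163 a.u. on NM, with log2 ratios of -3.83 and -4.08 in MB. SLC3A2, the heavy chain of the cystine transporter and of other amino acid transporters, had -1.23 and -1.66, while its light chain SLC7A11, a known NRF2 target, had -0.23 and -0.66. Averaged over its measured probes, SLC7A11 came to 0.05 against OM, so its direction there rests on the choice of probe. GPX4, which reduces lipid peroxides, had -1.09 and -1.35. GSTT1, a glutathione transferase, read 109 a.u. on OM, 357 a.u. on NM and 16.4 a.u. on MB, not well above background, so it was at least 5.47-fold below OM and at least 20.5-fold below NM. With normexp background correction its log2 ratio to OM was -0.91. GLRX2, a mitochondrial glutaredoxin, was lower in MB than NM (-2.17) and higher in NM than OM (1.25). Of 23 measured genes on the list, 19 stayed within 2-fold of OM in MB, with a median of -0.23 that was negative under every alternative.

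On the thioredoxin list, TXNIP, which binds and inhibits thioredoxin, read 6950 a.u. on OM, 3248 a.u. on MB and 75835 a.u. on NM, so NM stood far above both other arrays with a log2 ratio of 3.64 over OM. SESN2, a stress-induced sestrin, had -1.97 in MB against OM, -3.28 in MB against NM and 1.31 in NM against OM. SESN3 was higher in MB, by 1.26 against OM and 1.21 against NM, and both fell under 2-fold with normexp background correction. The ratio against NM also did so with quantile normalization and without background subtraction. SRXN1, a sulfiredoxin and known NRF2 target, had -0.38 and -0.44 in MB, and PRDX2 to PRDX6 all stayed within 2-fold in every comparison.

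On the list of quinone and carbonyl reduction and export, AKR1B10, another known NRF2 target, was the only one of 15 measured genes at 2-fold lower in MB than OM, at 105 against 50.6 a.u. and a log2 ratio of -1.02 that missed 2-fold under 3 alternatives. AKR1B1, an aldose reductase, was lower in MB than NM (-1.38) and higher in NM than OM (1.16, under 2-fold with quantile normalization and without scaling), and LTB4DH, now called PTGR1, was lower in MB than NM (-1.17). The 6 genes of NADPH supply all stayed within 2-fold in every comparison. Among superoxide and peroxide genes, SOD2, the mitochondrial superoxide dismutase, read 21126, 9989 and 110599 a.u. on OM, MB and NM, and SOD3, the extracellular one, read 20195, 91059 and 50529 a.u. SOD2 was thus lowest and SOD3 highest in the bodies, with log2 ratios of -1.05 and 2.21 over OM. CAT, catalase, had 0.15.

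**Figure D4:**
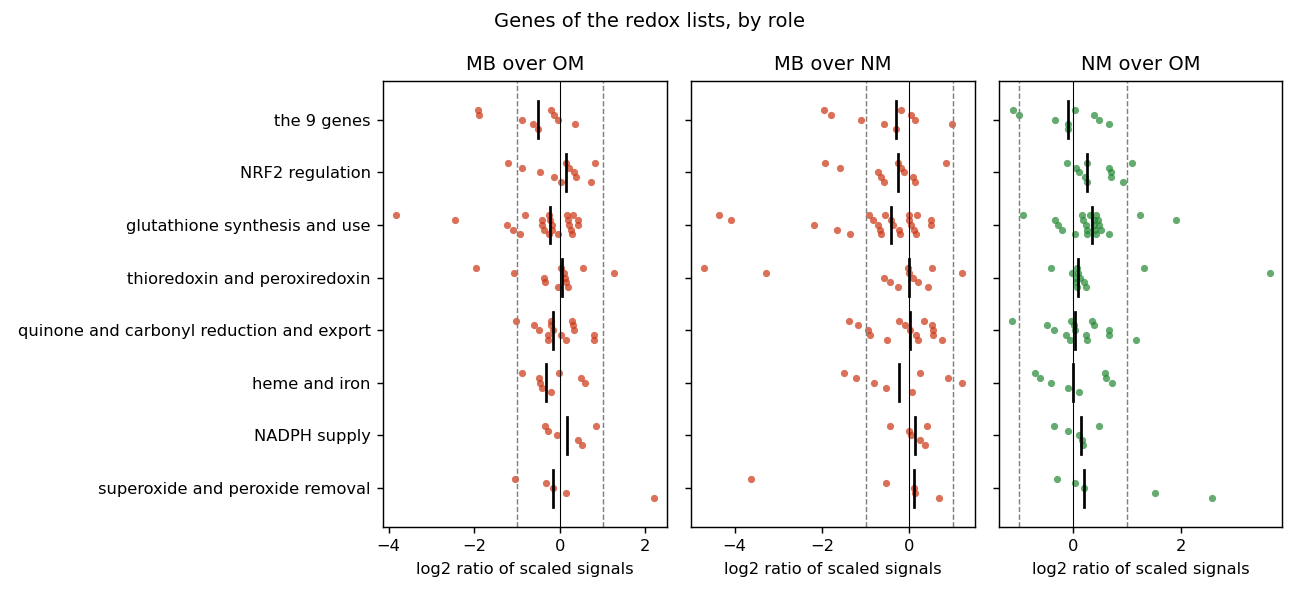
Log2 ratio of scaled signals for each measured gene (points) and the median (black line) of the 9 genes and of 7 lists of related genes, for MB over OM, MB over NM and NM over OM, with a separate scale in each panel; dashed lines mark 2-fold. Most points lie between the dashed lines, and the points farthest from 0 are CHAC1 and GSTT1 (glutathione), TXNIP and SESN2 (thioredoxin) and SOD2 and SOD3.

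The melanoma identity of the cultures was checked by markers of the melanocyte lineage and of other cells. SOX10 read 6254, 9382 and 4887 a.u. and S100B 25155, 43760 and 13307 a.u. on OM, MB and NM, and 6 of 7 lineage markers were well above background on at least 1 array, but TYR was on none and MLANA stayed at or below 39.5 a.u. Summed signals of 4 leukocyte markers were 192 to 217 a.u., with PTPRC at background on all 3 arrays. Those of 3 epithelial markers were 132 to 382 a.u., nearly all KRT14, with KRT5 and TACSTD1 (EPCAM) not well above background. PECAM1, an endothelial marker, read 87.7 a.u. on MB and was not well above background on OM and NM, and CDH5 was on none. Its part in the differences of the 9 genes was not tested.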

How the data were processed

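RNA of OM, MB and NM was hybridised to 1 Agilent 1-colour array each. The authors deposited the intensity of each spot from Agilent Feature Extraction (9.5.3.1 per the file headers), with a background surface fitted across the array subtracted and low values (7000 to 9481 spots per array) replaced by a surrogate, without scaling between arrays. The deposited value table holds the same intensity values. Control spots and outlier spots (77 to 81 per array) were left out, spots of a probe averaged, and each array was scaled by its mean over 3 housekeeping genes, GAPDH with ACTB and HSP90AA1, after the study's methods, which name HSP90 without the gene. The brightest probe stood for a gene, and a known gene has an NM_ accession. A gene was measured in a comparison when at least 1 array was well above background. Where the dimmer array was not, a value under the lowest signal well above background was raised to that signal, which gives a bound. That signal was 20.9, 19.8 and 33.2 scaled a.u. on OM, MB and NM. Differences of 2-fold on log2 ratios were counted, with no test.

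All 9 genes are named with every probe, and from each related list the genes with a 2-fold difference, together with NFE2L2, KEAP1, BACH1, SLC7A11, SRXN1, TXNIP and the AKR1C genes. A further gene that the rule names is not reported here. Genes named within 2-fold beyond these (HMOX2, FTH1 and NQO2 against some arrays, CAT) were chosen as partners or relatives of the 9 genes, and the differences between partner genes were computed after their values were seen. Members and lists were chosen with earlier results of these data known. Coordinates are hg17 as in the files, and exons were not looked up because no hg17 annotation was used here. The coding position of the printed probes is background knowledge. Python 3.11.15, pandas 2.3.3, numpy 2.4.6, matplotlib 3.10.9 and limma 3.58.1 in R 4.3.3 (normexp, offset 50) were used, and the calls were tested on simulated data. Alternatives were the 75th percentile, quantile normalization, no scaling, the geometric mean, HSP90AB1 for HSP90AA1, normexp, no background subtraction, outlier spots kept, the mean over probes, both arrays above background and the deposited table. The number of arrays limits the precision.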

Additional observations from a re-analysis of the deposited data

How the results depend on the processing

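No p-value exists here, and single cultures limit every comparison. No paired analysis was possible because each group has 1 array. Over 11 alternatives, no ratio past 2-fold changed sign among the 9 genes or the related genes, and 184 of 297 ratios of the 9 genes stayed within 1 SD between spots. Several alternatives could hardly move a ratio, so these counts are no independent support. The deposited table holds the same values, and keeping outlier spots or requiring both arrays above background left the ratios of the 9 genes nearly unchanged. The largest move of the median of all genes by a scaling factor was -0.19, too small to turn a ratio past 2-fold. The cause of the changes was not tested.

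With normexp, the count of the 9 genes 2-fold lower fell to 1 in MB over OM and to 1 in NM over OM. The share of all genes fell as well, to 2.56% and 1.51%. With the 75th percentile or quantile normalization, the count of the 9 genes rose to 3 in MB over OM as GCLM passed 2-fold. Of all genes, 5.75% and 5.22% were then lower. The NM over OM count was also 1 with the geometric mean and without background subtraction, where GCLM crossed the line (beside 2.69% and 1.8% of all genes). Without scaling, 1 gene was 2-fold higher in MB than NM, beside 13.6% of all genes. Related genes 2-fold higher in MB came to 1 over OM with normexp, beside 4.33% of all genes. They came to 3 over OM with the mean over probes, for which no share of all genes is given. Over NM they came to 1 with normexp or without background subtraction, beside 7.48% and 7.95% of all genes. Related genes lower in NM than OM came to 2 with quantile normalization or without scaling, beside 2.96% and 4.86% of all genes. They came to 0 with normexp or without background subtraction, beside 1.51% and 1.8%.

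The median log2 ratio of the 9 genes was -0.71 with the 75th percentile for MB over OM. For MB over NM it was -0.42 with the 75th percentile, -0.42 with quantile normalization, -0.15 without scaling, -0.40 with the geometric mean and -0.19 with the mean over probes. For NM over OM it was -0.17, -0.18, -0.28 and -0.023 with the first 4 of these settings. The 75th percentile moved the median of all genes by -0.19 in MB over OM, and no scaling moved it by 0.16 in MB over NM and -0.18 in NM over OM. AKR1C1 fell short of 2-fold in MB with normexp alone, so its count rests on the background treatment of dim spots.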
